A study of Rattus norvegicus with 29 samples.

Results

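The miR-362, miR-500, miR-532 and miR-660 cluster was read in tail vein plasma of 29 adult male Sprague-Dawley rats. Members were all rows of the miRNA count table whose name has the exact stem miR-362, miR-500, miR-532 or miR-660, on either arm of the precursor. This rule found 6 of 754 rows, namely rno-miR-362-3p, rno-miR-362-5p, rno-miR-500-3p, rno-miR-500-5p, rno-miR-532-3p and rno-miR-532-5p, and 0 rows for miR-660. All 6 members passed the filter on low counts, as did 744 of the 754 miRNAs.

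The study compared rats with lateral fluid-percussion traumatic brain injury (TBI), in which a pulse of fluid strikes the exposed dura through an opening in the skull, with sham-operated experimental controls that had the surgery without the pulse. Blood was drawn 48 h after surgery at 3 sites, the University of Eastern Finland (UEF, 12 rats), Monash (8 rats) and UCLA (9 rats). Injured rats were later sorted by video-EEG into those with epilepsy (TBI+, 9 rats) and those without (TBI−, 10 rats), and 10 rats were sham operated. UEF gave 4 sham, 4 TBI− and 4 TBI+ rats, Monash 3, 3 and 2, and UCLA 3, 3 and 3. Every group shared the strain, the sex, isoflurane anesthesia and the craniectomy. Per the study, the sites differed in the source of the rats, their feed and their housing before surgery. The analgesic was buprenorphine at UEF and Monash and flunixin at UCLA, where rats also had antibiotic chow. Comparisons between sites, and effects that differ by site, cannot be told apart from these differences. The outcome groups TBI+ and TBI− rest on a diagnosis made months after the blood was drawn. Plasma carries miRNA from many tissues and blood cells, so fewer releasing cells and less RNA from each cell cannot be told apart.

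A miRNA precursor folds into a hairpin from which the Dicer enzyme cuts a duplex, and either strand, named 5p or 3p by its arm, can be loaded into Argonaute and guide it to messenger RNAs. Pairing rests mainly on the seed, bases 2 to 8 of the mature strand, so miRNAs with one seed are read as a family. The cluster lies on the X chromosome in introns of Clcn5, the gene of an endosomal chloride and proton exchanger. miRNAs cut from one primary transcript are often expected to vary together, although each arm has its own stability.

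The mature sequences below, from RefSeq on the rat assembly GRCr8, are shown because they tell which members a read could be shared between. A mature sequence was found for 5 of the 6 members, all except rno-miR-362-5p. Capitals mark the seed.

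rno-miR-532-5p: cAUGCCUUgaguguaggacugu

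rno-miR-532-3p: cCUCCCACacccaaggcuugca

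rno-miR-362-3p: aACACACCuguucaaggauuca

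rno-miR-500-5p: aAUCCUUGcuaucugggugcuuag

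rno-miR-500-3p: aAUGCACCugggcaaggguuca

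rno-miR-501-5p: aAUCCUUUgucccuggguga

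rno-miR-501-3p: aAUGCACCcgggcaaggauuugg

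The last pair comes from miR-501, a linked precursor that the rule does not take. rno-miR-500-3p and rno-miR-501-3p had the seed AUGCACC in common and matched at 18 of the first 22 positions. Counted from 1 at the 5′ end of rno-miR-500-3p, the substitutions were U9C, G18A, C21U and A22G. rno-miR-500-5p and rno-miR-501-5p matched at 15 of 20 positions, with G8U inside the seed. Of the pairs of members with a mature sequence, rno-miR-362-3p and rno-miR-500-3p were the closest, at 17 of 22 positions. The substitutions were C3U, A4G, U11G, U12G and A18G, counted on rno-miR-362-3p. Counts of the miR-500 and miR-501 rows and of rno-miR-362-3p are therefore uncertain to the extent that short or mismatched reads were split between such pairs. Reads shared with rno-miR-362-5p could not be judged, as it had no mature sequence to compare. The seed ACACACC of rno-miR-362-3p was shared with miR-329-3p, and the seed AUGCCUU of rno-miR-532-5p with miR-511-5p. The seeds of rno-miR-532-3p and rno-miR-500-5p were found in no other rat miRNA with a mature sequence in the RefSeq table. The seed of rno-miR-362-5p was not compared, but the lower-case 5p side of the Mir362 hairpin below holds aauccuug, the bases that open rno-miR-500-5p.

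The 3 member hairpins are shown with their mature strands in capitals, to place both arms of each precursor side by side.

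Mir532: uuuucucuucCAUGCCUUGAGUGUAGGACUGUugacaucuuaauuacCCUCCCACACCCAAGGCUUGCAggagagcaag

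Mir362: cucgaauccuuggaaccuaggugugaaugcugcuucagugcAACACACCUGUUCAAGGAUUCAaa

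Mir500: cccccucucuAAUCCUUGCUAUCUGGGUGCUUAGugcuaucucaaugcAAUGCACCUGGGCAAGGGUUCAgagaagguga

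On GRCr8 the Mir532 hairpin was annotated at chrX:17919185-17919263, Mir362 at chrX:17926485-17926549 and Mir500 at chrX:17930647-17930726, all on the plus strand. The order was Mir532, Mir188, Mir362, Mir501 and Mir500, 5 hairpins over 11542 bases, and each lay inside the annotated span of Clcn5. Mir188 began 321 bases after Mir532, Mir362 a further 6820 bases on, Mir501 after 639 bases and Mir500 after 3374 bases. The authors counted reads on the earlier assembly Rnor_6.0, so these positions describe the cluster and not the read mapping.

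Libraries held 1162307 to 5223469 miRNA counts (median 2713557). No pair of libraries agreed within sampling noise. Levels are given as CPM, the miRNA counts of a rat scaled to one common library size, after TMM scaling, which matches libraries by the bulk of their miRNAs. One library stood apart, UEF sham rat 3, with a TMM factor of 0.387 against 0.693 to 1.59 in the other 28. Its summed CPM of 6 liver miRNA rows (miR-122, miR-192 and miR-194) was 1498208 on this scale, the highest of the UEF sham rats at 301203 to 1498208, while the highest sum in any other group was 270282. The summed CPM of 5 red cell rows (miR-451, miR-144 and miR-486) ranged from 40827 to 164326 in sham rats and from 89688 to 258199 in TBI rats. The summed CPM of 6 rows of white cells and platelets (miR-223, miR-142 and miR-150) ranged from 43571 to 107768 in sham rats, from 52836 to 119665 in TBI− rats and from 59126 to 156009 in TBI+ rats. No row of the 3 lists was at 0 in any rat.

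Together the 6 members took 0.0578% ± 0.0165 of the miRNA counts (SD, n = 29). miR-532 supplied most of this, with 41.6% ± 8.35 of the member counts on rno-miR-532-5p and 29.7% ± 5.99 on rno-miR-532-3p. The other 4 members each supplied between 5.16% and 8.66% on average. In order of mean level, rno-miR-532-5p was at 239 CPM ± 79.3 and rno-miR-532-3p at 164 CPM ± 28.6 (SD, n = 29). The next were rno-miR-500-5p at 48.5 CPM ± 37.2, rno-miR-500-3p at 44.2 CPM ± 11.8, rno-miR-362-3p at 40.7 CPM ± 48.9 and rno-miR-362-5p at 28.9 CPM ± 10.4. The first pair stood clear of the other 4 in most rats. Within the pair, rno-miR-532-5p was above rno-miR-532-3p in all but 3 rats. Among the other 4, each step was smaller than the larger SD of the members on either side. Mature miRNAs differ little in length, but library enzymes capture them unequally, so the order is one of counts.

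The members differed widely in how steady they were. rno-miR-532-3p was the second least variable of 744 miRNAs, with an SD of 0.24 on the log2 CPM scale against a median SD of 0.63. Its level ran from 116 to 247 CPM, a 2.12-fold range over 29 rats. rno-miR-500-3p (SD 0.36, rank 32 from the lowest), rno-miR-362-5p (SD 0.43, rank 85) and rno-miR-532-5p (SD 0.45, rank 110) were also below the median SD. rno-miR-362-3p had an SD of 0.71 (rank 490). rno-miR-500-5p had an SD of 1.23 (rank 673), and its level ran from 5.64 to 153.5 CPM, a 27.2-fold range, at 12 to 400 counts per rat. Thus the 5p and 3p strands of the same miR-500 precursor lay near opposite ends of the ranking.

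**Figure D1:**
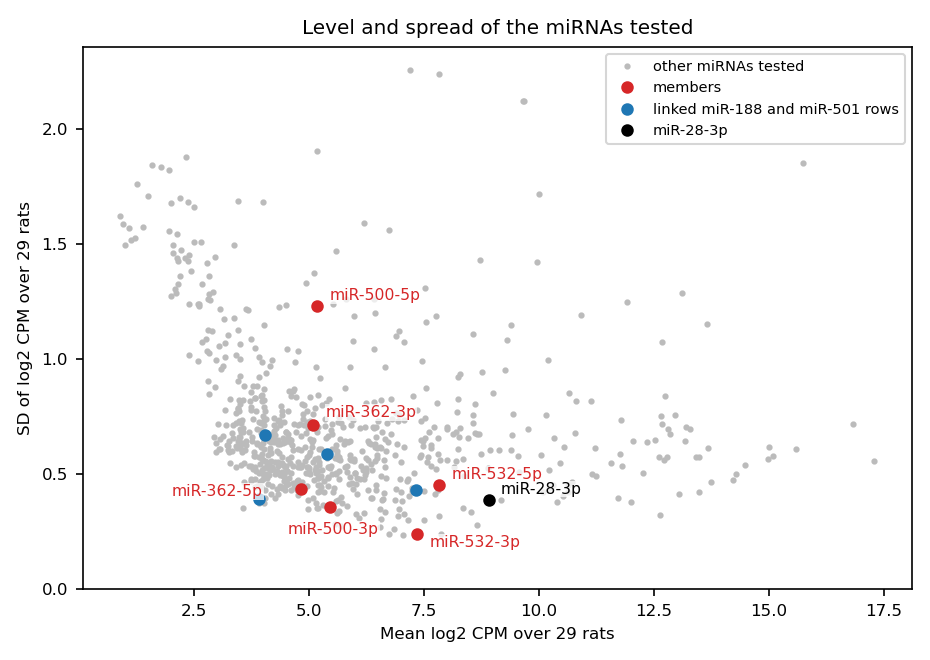
Mean (x axis, log2 CPM) against SD (y axis, log2 CPM) over 29 rats for 744 miRNAs, with the 6 members in red, the 4 linked miR-188 and miR-501 rows in blue and miR-28-3p in black. miR-532-3p sits at the lower edge with an SD of 0.24, and miR-500-5p stands well above miRNAs of like level with an SD of 1.23.

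The ranking depended on the scaling. miR-28-3p, the miRNA the study used as reference in its PCR assays, had an SD of 0.39 (rank 48) after TMM. With scaling to the total count, miR-28-3p was the least variable (SD 0.16, rank 1) and rno-miR-532-3p had an SD of 0.42 (rank 48). With scaling to miR-28-3p itself, rno-miR-532-3p ranked 42. rno-miR-500-5p ranked 693 under both of these scalings.

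Whether injury moved the cluster was tested first. With edgeR's quasi-likelihood test, site in the model and p-values adjusted over 744 miRNAs, 0 of the 6 members passed an adjusted p of 0.05 for TBI (19 rats) against sham (10 rats). Over all miRNAs 8 passed (1.08%), and 85 had an unadjusted p under 0.05, among them 0 members. DESeq2 also called 0 members. The members' median log2 fold change was 0.09 against 0.05 over all miRNAs, and 5 of the 6 values were positive.

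rno-miR-532-3p ran from 116 to 183 CPM (median 148) in sham rats and from 132 to 247 CPM (median 162) in TBI rats. The groups overlapped over most of their range, and the log2 fold change was 0.17 (SE 0.13, 95% interval −0.09 to 0.42, edgeR adjusted p = 0.692). rno-miR-532-5p ran from 119.5 to 460 CPM (median 235) in sham rats and from 159 to 351 CPM (median 224) in TBI rats. Here the sham rats lay on both sides of the TBI rats, and the log2 fold change was −0.12 (SE 0.18, 95% interval −0.50 to 0.26, edgeR adjusted p = 0.894). The highest and second highest values, 460 and 428.5 CPM, came from UEF sham rats 3 and 2.

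rno-miR-500-3p was at 27.0 to 64.5 CPM in sham rats and 26.5 to 77.6 CPM in TBI rats, and rno-miR-362-5p at 21.6 to 49.1 and 13.7 to 69.5 CPM. Their log2 fold changes were 0.07 (SE 0.17) and 0.01 (SE 0.19), and for both miRNAs the sham range lay inside the TBI range. rno-miR-500-5p was at 16.4 to 107 CPM in sham rats and at 5.64 to 153.5 CPM in TBI rats. Its log2 fold change was 0.10 with a 95% interval from −0.73 to 0.94, which leaves room for a difference in either direction.

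rno-miR-362-3p was at 17.8 to 47.1 CPM in sham rats (median 26.7) and at 19.1 to 291 CPM in TBI rats (median 31.97). A single rat, Monash TBI− rat 2, held 291 CPM from 944 counts, while the next highest of the 29 rats had 47.1 CPM and no other rat had more than 127 counts. The log2 fold change of TBI against sham was 0.40 (SE 0.30, edgeR adjusted p = 0.692), and 0.06 without that rat. The 5p strand of the same precursor was at 21.6 CPM in that rat. miR-329-3p, which has the same seed, was at 149 CPM there, its highest level of 29 rats, against 32.2 to 125 CPM in the rest.

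**Figure D2:**
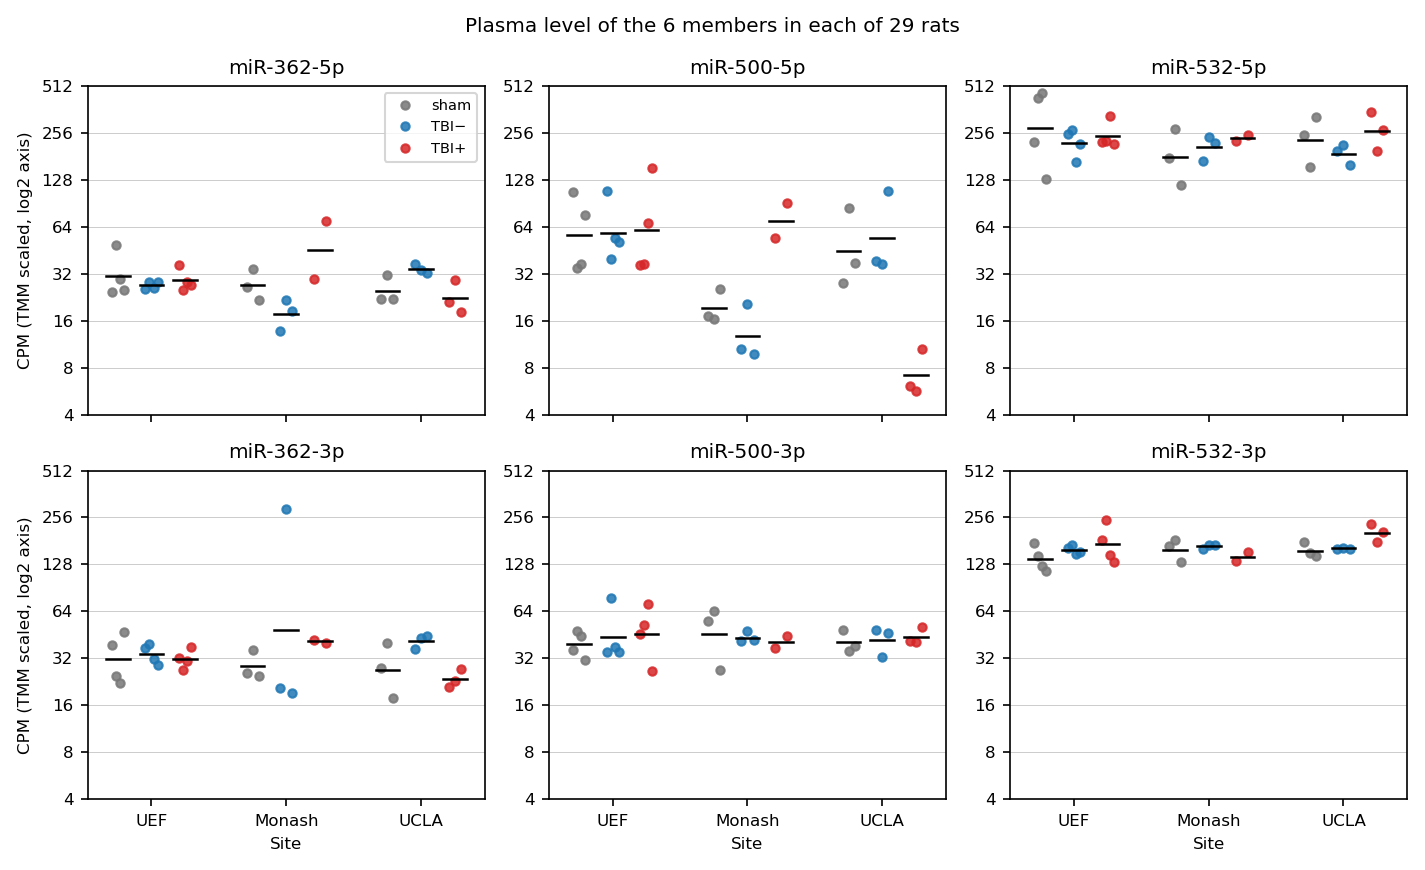
Level of each member (y axis, TMM-scaled CPM on a log2 axis) in every rat, by site (x axis) and group (gray sham, blue TBI−, red TBI+), with bars at the geometric mean. Sham and TBI rats overlap in all 6 panels, a single Monash TBI− rat stands at 291 CPM in the miR-362-3p panel, and the 3 UCLA TBI+ rats lie at 5.64 to 10.6 CPM in the miR-500-5p panel.

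Of the linked rows, rno-miR-501-3p came nearest to a call for injury. It was at 62.8 to 189 CPM in sham rats (median 145.5) and at 127 to 260.5 CPM in TBI rats (median 173), with a log2 change of 0.44 (SE 0.15, edgeR adjusted p = 0.165). At UEF alone it passed, with a log2 change of 0.78 (SE 0.22, edgeR adjusted p = 0.0305), in a comparison that called 3.76% of all miRNAs and 0 members. At Monash 0% of miRNAs and 0 members were called for TBI against sham (54 miRNAs and 1 member, rno-miR-362-3p, had an unadjusted p under 0.05), and at UCLA 0.269% and 0 members. Beside this, the red cell sums at UEF were 40827 to 91332 CPM in sham rats and 90738 to 218256 CPM in TBI rats. These overlapped narrowly. The liver sums there were 301203 to 1498208 CPM in sham rats and 28606 to 270282 CPM in TBI rats, with no overlap. The part of red cell and liver content in the miR-501-3p result was not tested. The difference of the TBI effect between sites was called for 0.403% of miRNAs and for 0 of 6 members and 0 of 4 linked rows.

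**Figure D3:**
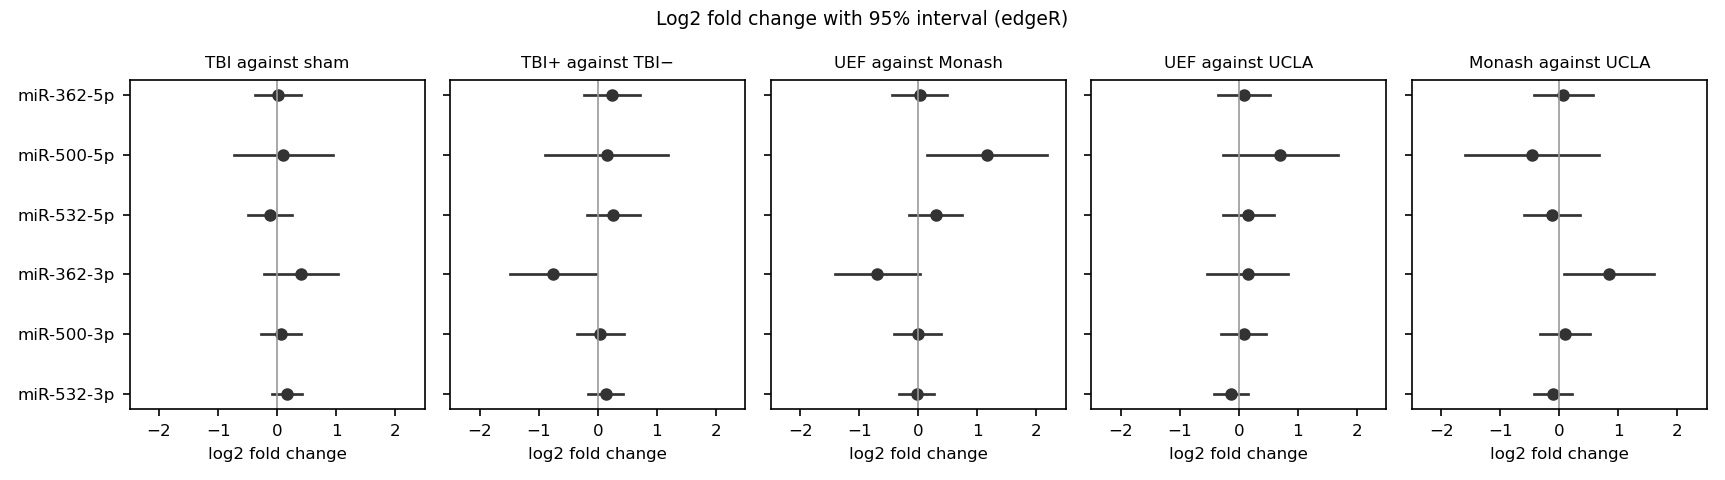
Log2 fold change (x axis, with 95% interval) of the 6 members (y axis) in the comparisons of injury, outcome and sites. Most intervals span 0, the 3 that do not belong to miR-362-3p and miR-500-5p, and none of the 30 values passed an adjusted p of 0.05.

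The outcome comparison asked whether plasma at 48 h differed between rats that later had epilepsy and those that did not. Across the sites, with site in the model, TBI+ (9 rats) against TBI− (10 rats) called 0% of miRNAs with edgeR and with DESeq2, and 0 of 6 members. Unadjusted p-values under 0.05 were found for 15 miRNAs, and rno-miR-362-3p was the 1 member among them, with a log2 change of −0.75 (SE 0.36, edgeR adjusted p = 1). Without Monash TBI− rat 2 the value was −0.06. The other 5 members had log2 fold changes from 0.04 to 0.26.

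rno-miR-532-3p showed an unequal spread between the outcome groups, at 150 to 171 CPM in the 10 TBI− rats and at 132 to 247 CPM in the 9 TBI+ rats. Its SD on the log2 CPM scale was 0.06 in TBI−, 0.33 in TBI+ and 0.23 in sham rats. The difference in spread was seen in the values after TMM and was not tested. It is given for this scaling only, and with scaling to the total count the SD over all rats was 0.42. The mean level was 162.5 CPM ± 6.85 in TBI− and 179 CPM ± 41.8 in TBI+ rats (SD), a log2 change of 0.13 (SE 0.15).

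Within sites, the outcome groups of rno-miR-500-5p did not overlap at Monash and UCLA and lay in opposite order. The share of all miRNAs so separated was not counted. At Monash the 3 TBI− rats were at 10.6, 20.4 and 9.74 CPM and the 2 TBI+ rats at 54.1 and 90.5 CPM. At UCLA the 3 TBI− rats were at 38.8, 37.1 and 109 CPM and the 3 TBI+ rats at 6.09, 5.64 and 10.6 CPM. At UEF the 4 TBI− rats were at 108, 39.9, 54.3 and 50.9 CPM and the 4 TBI+ rats at 36.2, 36.8, 68.1 and 153.5 CPM, so these overlapped throughout. Sham rats were at 16.4 to 25.4 CPM at Monash and at 28.0 to 85.1 CPM at UCLA.

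A fit with a separate level for each site and group was then made, chosen after these values had been seen. rno-miR-500-5p was higher in TBI+ than in TBI− rats at Monash by a log2 change of 2.40 (SE 0.62, edgeR adjusted p = 0.0169) and lower at UCLA by −3.04 (SE 0.61, edgeR adjusted p = 0.00193). At UEF the value was 0.22 (SE 0.47, edgeR adjusted p = 1). The difference of these effects between the sites passed (edgeR adjusted p = 0.000214), and it did so in each of the 7 alternative fits and without each rat in turn, with adjusted p-values from 1.57e-08 to 0.00757. Many other miRNAs did likewise: the difference between sites was called for 10.3% of all miRNAs, TBI+ against TBI− for 8.74% at Monash (57 of 65 higher in TBI+), for 6.72% at UCLA (43 of 50 lower in TBI+) and for 0% at UEF (16 had an unadjusted p under 0.05). rno-miR-500-5p ranked 15 of 744 by the p-value of the difference between sites. The alternative fits and those with rats left out reused the values that led to this test. Sham rats do not enter its contrast. With scaling to the total count all 25 miRNAs called at Monash were higher in TBI+. The Monash call of rno-miR-500-5p was lost under that scaling (log2 fold change 2.68), with scaling to miR-28-3p (2.60), without Monash TBI− rat 3 (2.21) and without Monash TBI+ rat 2 (2.01, edgeR adjusted p = 0.184), where the TBI+ rat left is assumed to vary like the other groups.

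rno-miR-362-5p was the other member called. At Monash the TBI− rats were at 13.7, 21.6 and 18.4 CPM and the TBI+ rats at 29.5 and 69.5 CPM, with a log2 change of 1.46 (SE 0.36, edgeR adjusted p = 0.0103). At UCLA the TBI− rats were at 36.9, 33.8 and 32.4 CPM and the TBI+ rats at 20.99, 29.2 and 18.3 CPM, with a log2 change of −0.59 (SE 0.33, edgeR adjusted p = 0.310). The groups were again apart and in opposite order at both sites, with the share of all miRNAs so separated again not counted. The difference between sites had an adjusted p of 0.0127 (edgeR). Without Monash TBI+ rat 2, at 69.5 CPM, the Monash value fell to 0.73 (edgeR adjusted p = 0.491), and the difference between sites had an adjusted p of 0.262 (edgeR). Without Monash TBI− rat 1, at 13.7 CPM, the Monash value was 1.17 and no longer called, and the difference between sites had an adjusted p of 0.0526 (edgeR). With scaling to miR-28-3p the Monash value was 1.70 and was not called.

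Thus 2 of 6 members were called for the difference between sites (10.3% of all miRNAs) and 2 of 6 at Monash (8.74%). At UCLA 1 of 6 was called (6.72%) and at UEF 0 of 6 (0%). The other 4 members had adjusted p-values from 0.519 to 0.973 for the difference between sites, and among them only rno-miR-362-3p at Monash had an unadjusted p under 0.05 at any site (log2 fold change −1.43, edgeR adjusted p = 0.220). That negative value rested on Monash TBI− rat 2 at 291 CPM. The other TBI− rats there were at 20.7 and 19.1 CPM, below the TBI+ rats at 42.1 and 40.0 CPM, so without that rat the order of the groups was the reverse. Without it the difference between sites of rno-miR-362-3p passed as well (edgeR adjusted p = 0.0185). Among the linked rows rno-miR-501-5p was called at UCLA, with a log2 change of −1.43 (SE 0.40, edgeR adjusted p = 0.0273), and its difference between sites had an adjusted p of 0.0511 (edgeR).

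**Figure D4:**
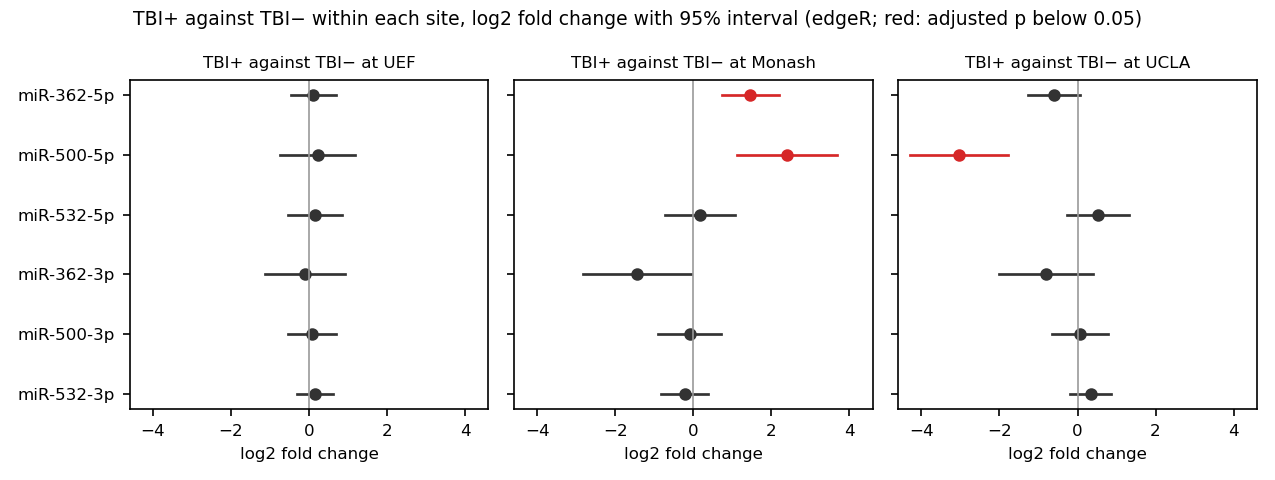
Log2 fold change of TBI+ against TBI− rats (x axis, with 95% interval) for the 6 members (y axis) at UEF (4 and 4 rats), Monash (2 and 3) and UCLA (3 and 3), with adjusted p under 0.05 in red. miR-500-5p lies at 2.40 at Monash and at −3.04 at UCLA, and miR-362-5p at 1.46 at Monash.

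Some other quantities were also apart between these groups. The red cell and liver sums of TBI− and TBI+ rats overlapped at both Monash and UCLA. The summed white cell and platelet miRNAs were at 85771 to 119665 CPM in TBI− and 59126 to 78245 CPM in TBI+ rats at Monash, and at 77571 to 89157 and 94118 to 156009 CPM at UCLA, apart at both sites and in the order opposite to rno-miR-500-5p. Library totals at Monash were 2343627 to 3395469 counts in TBI− and 1320300 and 1722453 in TBI+ rats. At UCLA they overlapped, at 2163966 to 2903673 and 2198033 to 3976506. Over all 29 rats the rank correlation of rno-miR-500-5p with the library total was −0.33 (permutation p = 0.0853, adjusted p = 0.102 over 6 members), and −0.77, −0.69 and −0.43 within UEF, Monash and UCLA. The members that passed were rno-miR-532-5p (rho = 0.53, permutation adjusted p = 0.0199) and rno-miR-500-3p (rho = 0.46, permutation adjusted p = 0.0359). The library total also enters the scaling of the levels, so the quantities in these correlations are not independent. With the red cell ratio in the model the adjusted p of the difference between sites was 0.000297 (edgeR). The part of white cell and platelet content and of depth in the result was not tested.

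Between the sites, 0 of 6 members were called in each of the 3 pairs, where edgeR called 7.66% of miRNAs for UEF against Monash, 9.81% for UEF against UCLA and 5.65% for Monash against UCLA. DESeq2 called 0 members in these pairs as well. Unadjusted p-values under 0.05 were found for 1, 0 and 1 member in turn. rno-miR-500-5p was at 34.9 to 153.5 CPM at UEF (median 52.6), at 9.74 to 90.5 CPM at Monash (median 18.7) and at 5.64 to 109 CPM at UCLA (median 37.1). UEF against Monash gave a log2 change of 1.17 (SE 0.50, edgeR adjusted p = 0.135). In sham rats alone, 4 UEF rats at 107, 34.9, 37.1 and 76.0 CPM did not overlap 3 Monash rats at 17.1, 16.4 and 25.4 CPM. How many other miRNAs lay apart in these rats was not counted. The log2 fold change of rno-miR-500-5p was 1.82 there and passed (edgeR adjusted p = 0.038, adjusted over the 505 miRNAs kept in that fit, of which 5.74% were called). In TBI rats alone it was 0.82 (edgeR adjusted p = 0.562), in a fit that called 0% of 739 miRNAs (106 had an unadjusted p under 0.05). It also passed without Monash TBI+ rat 2, at 1.59 (edgeR adjusted p = 0.0227).

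rno-miR-362-3p had a log2 fold change of 0.85 for Monash against UCLA (SE 0.37, edgeR adjusted p = 0.203). Without Monash TBI− rat 2 this was −0.03. The remaining members were level between sites to within their spread, with rno-miR-532-3p at 159 CPM ± 34.2 at UEF, 159 CPM ± 17.97 at Monash and 175 CPM ± 27.8 at UCLA (SD). rno-miR-532-5p was at 261.5 CPM ± 98.4, 209.5 CPM ± 50.6 and 234 CPM ± 69.4, and rno-miR-500-3p at 45.0 ± 15.5, 44.9 ± 11.4 and 42.5 ± 6.38 CPM.

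The members did not vary as 1 unit across rats. Over the 15 pairs the Spearman rho of log2 CPM after TMM had a median of 0.05 and ran from −0.53 to 0.63, and all 276396 pairs of tested miRNAs had a median of 0.02. Adjusted over the 15 pairs, 4 rank correlations passed by permutation (100000 resamples, two-sided). rno-miR-362-3p rose with rno-miR-500-5p (rho = 0.63, permutation p = 0.0003, adjusted p = 0.0045), with rho of 0.61, 0.69 and 0.65 within UEF, Monash and UCLA. Its Pearson r was 0.27 (permutation p = 0.157) and 0.76 without the 2 rats farthest from the median of rno-miR-362-3p, one of which was Monash TBI− rat 2.

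rno-miR-500-3p rose with rno-miR-532-3p (rho = 0.48, permutation p = 0.00917, adjusted p = 0.0398, within-site rho 0.40, 0.79 and 0.43) and with rno-miR-532-5p (rho = 0.47, permutation p = 0.0106, adjusted p = 0.0398, within-site rho 0.64, 0.64 and 0.18). Their Pearson r were 0.42 (permutation p = 0.0236) and 0.43 (permutation p = 0.0193), and 0.55 and 0.38 without the 2 farthest rats. rno-miR-500-5p went against rno-miR-532-3p (rho = −0.53, permutation p = 0.00346, adjusted p = 0.0259, within-site rho −0.24, −0.69 and −0.83). Its Pearson r was −0.49 (permutation p = 0.00635) and −0.38 without the 2 farthest rats. The calls of the 3 pairs other than rno-miR-362-3p with rno-miR-500-5p were each lost on leaving out single rats. For rno-miR-500-5p with rno-miR-532-3p these were UEF TBI+ rat 4, Monash sham rat 2 and UCLA TBI+ rat 3, with rho between −0.50 and −0.49, and for the rno-miR-500-3p pairs rho stayed between 0.42 and 0.56 over all rats left out. None of the 15 Pearson correlations passed after adjustment, the lowest adjusted p being 0.0887.

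The strands of 1 precursor were not correlated beyond the permutations after adjustment. Spearman rho was 0.40 for miR-362 (permutation p = 0.0335, adjusted p = 0.101), 0.19 for miR-532 (permutation p = 0.319, adjusted p = 0.478) and −0.36 for miR-500 (permutation p = 0.0578, adjusted p = 0.124). With scaling to the total count the strands of miR-362 (rho = 0.64, permutation adjusted p = 0.0017) and miR-532 (rho = 0.56, permutation adjusted p = 0.00645) were called, and likewise with scaling to miR-28-3p (rho = 0.67, permutation adjusted p = 0.00095, and rho = 0.55, permutation adjusted p = 0.00768). Some pairs from different precursors were closer than the strands of 1 precursor, and others were not. Among 30 pairs with a linked row, adjusted on their own, rno-miR-500-5p and rno-miR-501-5p had a rho of 0.81 (permutation p = 1e-05, the smallest the resamples can give, adjusted p = 0.00015, within-site rho 0.83, 0.48 and 0.85). rno-miR-532-3p and rno-miR-501-3p had a rho of 0.71 (permutation p = 3e-05, adjusted p = 0.0003, within-site rho 0.71, 0.95 and 0.53), and rno-miR-500-3p and rno-miR-501-3p a rho of 0.51 (permutation p = 0.00516, adjusted p = 0.031). Strands of opposite arms could be as close, with rho = 0.74 for rno-miR-362-3p and rno-miR-501-5p (permutation p = 1e-05, adjusted p = 0.00015). Same-arm pairs could be far apart or opposed, with rho = −0.56 for rno-miR-500-3p and rno-miR-188-3p (permutation p = 0.00193, adjusted p = 0.0145). The hairpins next to each other, Mir532 and Mir188, gave rho = −0.23 for their 3p and −0.25 for their 5p strands, neither called.

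These signs depended on the scaling. With scaling to the total count all 15 member pairs were positive, with rho from 0.27 to 0.77 and a median of 0.45, and the median over all pairs of miRNAs rose to 0.30. rno-miR-500-5p and rno-miR-532-3p then had a rho of 0.46 in place of −0.53. With scaling to miR-28-3p all 15 were positive as well, with rho from 0.24 to 0.74. The pair of rno-miR-362-3p and rno-miR-500-5p was positive under all 3 scalings and at each site, and no pair of members passed after adjustment within a single site.

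**Figure D5:**
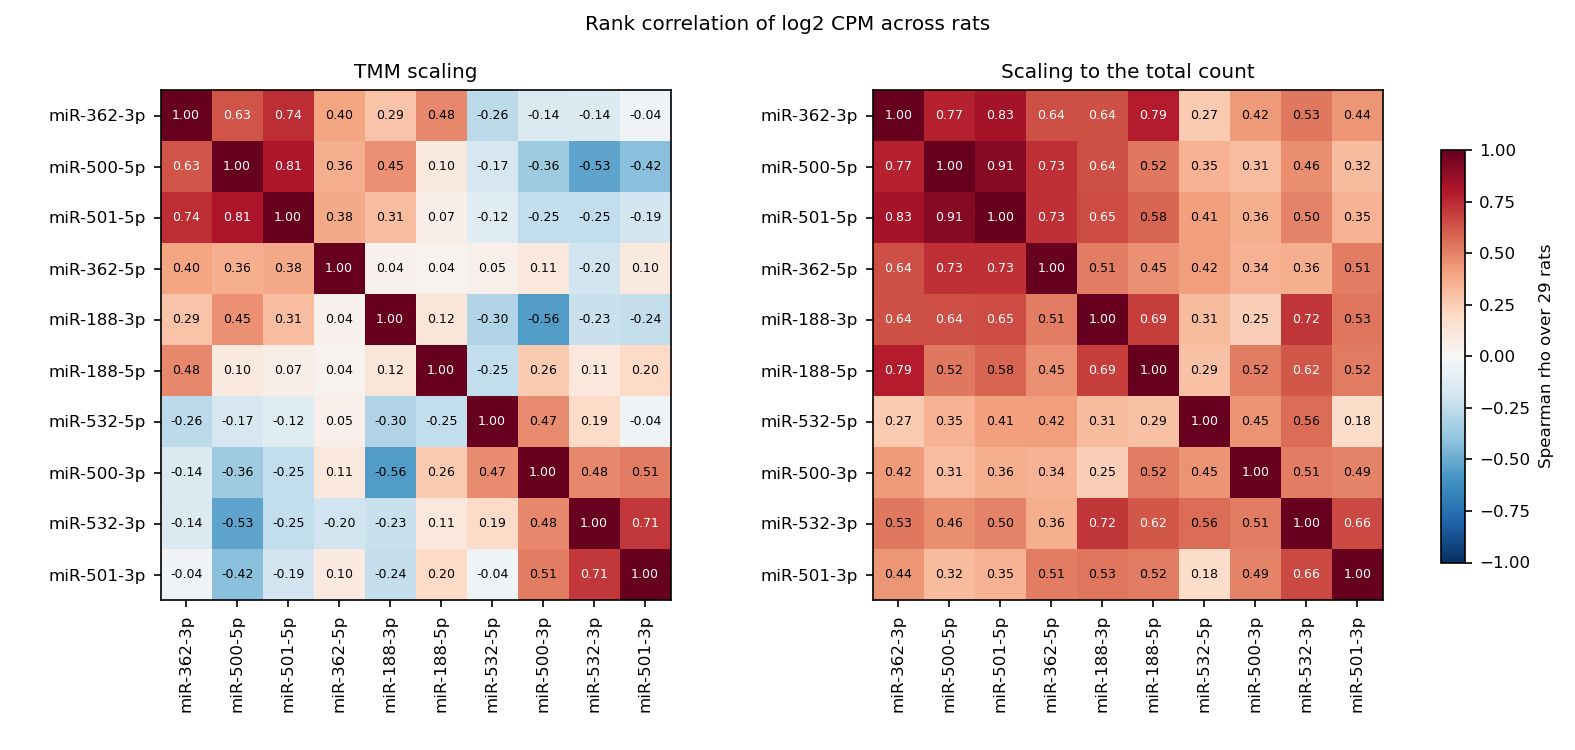
Spearman rho over 29 rats between the 6 members and the 4 linked rows, with TMM scaling (left) and scaling to the total count (right), in color from −1 to 1 with the value in each cell. After TMM the 5p rows of miR-500 and miR-501 with miR-362-3p stand apart from the 3p rows of miR-500, miR-501 and miR-532, and with total counts the 15 member pairs are all positive.

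The miRNAs with ranks most like each member's were named from all 743 others, as a description. For rno-miR-532-3p these were miR-92a-3p (rho = 0.75), miR-25-3p (0.71) and rno-miR-501-3p (0.71), where miR-92a and miR-25 are abundant in red cells. For rno-miR-500-3p they were miR-7a-5p (rho = 0.71), miR-16-5p (0.67), another abundant blood cell miRNA, and miR-16-3p (0.66). For rno-miR-532-5p they were miR-199a-5p (rho = 0.69), miR-29a-3p (0.67) and miR-30c-5p (0.65).

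For rno-miR-500-5p the nearest were miR-207 (rho = 0.91), miR-3068-3p (0.89) and miR-190b-3p (0.88), and for rno-miR-362-3p miR-592 (0.83), miR-212-5p (0.78) and rno-miR-501-5p (0.74). Those of rno-miR-362-5p were miR-6329 (rho = 0.63), miR-3584-3p (0.57) and miR-3084c-3p (0.55). miR-207 had the same opposite order of the outcome groups as rno-miR-500-5p, with log2 fold changes for TBI+ against TBI− of 1.55 at Monash (edgeR adjusted p = 0.0347) and −1.78 at UCLA (edgeR adjusted p = 0.0116). For miR-3068-3p these were 2.38 (edgeR adjusted p = 0.00196) and −1.79 (edgeR adjusted p = 0.0126).

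Red cell content was set against the members through the log2 ratio of miR-451-5p to miR-23a-3p, a common index of hemolysis. It was −2.86 ± 0.62 in sham, −2.05 ± 0.64 in TBI− and −2.25 ± 0.60 in TBI+ rats (SD). rno-miR-532-3p rose with it (rho = 0.50, permutation p = 0.00721, adjusted p = 0.0433 over 6 members, within-site rho 0.34, 0.62 and 0.65). Its Pearson r was 0.41 (permutation p = 0.0285) and 0.46 without the 2 farthest rats. rno-miR-500-3p had a rho of 0.40 (permutation p = 0.0342, adjusted p = 0.103) and a Pearson r of 0.55 (permutation p = 0.00189, adjusted p = 0.0113), 0.43 without the 2 farthest rats. The other 4 had rho from −0.08 to 0.26. Both quantities share the library, and the correlation was computed after the levels had been seen.

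The balance of the strands was read as the log2 ratio of 3p to 5p counts, which needs no scaling. For miR-532 it averaged −0.49 ± 0.47 (SD, n = 29), with more 5p than 3p counts in all but 3 rats. For miR-362 the ratio averaged 0.27 ± 0.80, with 3p above 5p in 20 of 29 rats, and Monash TBI− rat 2 stood at 3.75 where no other rat passed 0.89. For miR-500 the ratio averaged 0.29 ± 1.41 and ran from −2.54 to 2.86, with 3p above 5p in 18 of 29 rats.

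None of the 10 tests of miR-362 and miR-532 passed (two-sided permutation test of the means, exact except for TBI against sham, adjusted over 10). TBI minus sham was 0.30 for miR-362 (permutation p = 0.399) and 0.18 for miR-532 (permutation p = 0.342). TBI+ minus TBI− was −0.60 for miR-362 (exact permutation p = 0.0914, adjusted p = 0.653) and −0.17 for miR-532 (exact permutation p = 0.261, adjusted p = 0.653). Within sites, TBI minus sham had exact permutation p-values from 0.206 to 0.857 for these precursors, with smallest possible values of 0.00202 at UEF, 0.0179 at Monash and 0.0119 at UCLA.

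For miR-500, added after its strands were seen to differ, UEF against Monash was −1.39 (exact permutation p = 0.0172, adjusted p = 0.257 over 15 tests). The 3 UCLA TBI+ rats had ratios of 2.76, 2.86 and 2.25, all above the UCLA TBI− rats at 0.32, −0.19 and −1.24. The 2 Monash TBI+ rats had ratios of −0.54 and −1.03, both below the Monash TBI− rats at 1.95, 1.23 and 2.10. TBI+ minus TBI− was thus 2.99 at UCLA and −2.55 at Monash, each with an exact permutation p of 0.1, the smallest that 10 and 20 regroupings allowed for a two-sided test. At UEF it was 0.02. The ratio holds rno-miR-500-5p as its lower term, and rno-miR-500-3p was at means of 43.5 and 40.8 CPM in TBI− and TBI+ rats at Monash and 42.5 and 44.2 CPM at UCLA, so the ratio restates the levels of rno-miR-500-5p and is no separate evidence.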

How the data were processed

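Plasma small RNA of 29 rats was sequenced by the study from QIAseq miRNA libraries. Per the labels and the study's methods, the authors trimmed reads with cutadapt, aligned them with Bowtie and deposited raw read counts per miRNA, with no normalization. Whether reads were merged by molecular identifier was not given in the sources used here. Each library came from a separate rat.

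The deposited counts were tested with the quasi-likelihood test of edgeR 4.0.16 (R 4.3.3) after filterByExpr (minimum count 10, 744 of 754 rows kept) and TMM scaling, with p-values adjusted by Benjamini-Hochberg over all 744 miRNAs at a threshold of 0.05. Injury and outcome contrasts had site in the model, and site contrasts had condition. The study's methods name no covariate. Log2 CPM used a prior count of 2. Correlations and strand ratios were tested by two-sided permutation (100000 resamples, or exact). DESeq2 1.42.0, other scalings, filters, thinning to 1162307 counts, covariates and left-out rats were alternatives. The scripts were tested on simulated data.

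Named were all rows of the 4 member stems, the linked stems miR-188, miR-501 and miR-502 (0 rows), rows that share a member's seed, the 3 nearest miRNAs by rank correlation, miR-28-3p, and the red cell pair miR-451-5p and miR-23a-3p. Members and lists were chosen with earlier results of these data known. Replicate numbers do not pair rats in the labels, and 28 same-number pairs of deviations had a median correlation of −0.02 (7 over 0.1).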

Additional observations from a re-analysis of the deposited data

Results flagged for a closer look

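A rat was marked where its gap to the nearest other rat of its group was large against the whole range of the group (Dixon's criterion). This held in 11 of 72 group and measure combinations, where chance marks about 1 in 20 in independent groups. The combinations here share rats, and Monash TBI− rat 2 alone gave several of the marks, so no excess over chance can be read from this count. miR-362-3p stood at 291.1 CPM in Monash TBI− rat 2, against a next highest 44.7 CPM among TBI− rats and 42.1 CPM among Monash rats, and the log2 ratio of miR-362-3p to miR-362-5p was 3.75 there, against a next highest 0.60 in both groups. miR-362-5p stood at 69.5 CPM in Monash TBI+ rat 2, against 36.5 CPM among TBI+ rats and 34.6 CPM among Monash rats, and at 49.1 CPM in UEF sham rat 2, against 34.6 CPM among sham rats. miR-500-3p stood at 77.6 CPM in UEF TBI− rat 2, against 48.5 CPM among TBI− rats and 37.8 CPM among UEF TBI− rats. miR-532-5p stood at 328.4 CPM in UEF TBI+ rat 3, against 228.7 CPM in its group, and the log2 ratio of miR-500-3p to miR-500-5p was −2.54 in UEF TBI+ rat 4, against 0.06.

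The effect of outcome differed between the sites for miR-500-5p (edgeR adjusted p = 0.000214) and miR-362-5p (edgeR adjusted p = 0.0127), in a test of the difference itself that was chosen after the values had been seen. That test called 10.3% of all miRNAs.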

How the results depend on the processing

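Across alternatives, the counts of members called for injury, outcome, UEF against UCLA and Monash against UCLA were 0 throughout, also under DESeq2. For UEF against Monash the count was 1 in sham rats alone and 0 to 1 with rats left out. For TBI+ against TBI− at Monash it was 2, but 1 with total counts, 0 with scaling to miR-28-3p and 0 to 2 with rats left out, and for the difference between sites 1 to 3 with rats left out. With the replicate block the counts were 0 for injury and outcome across sites, 2 at Monash, 1 at UCLA and 2 for the difference between sites. Replicate numbers are shared in name only, and the block changed no member call. The median log2 fold change of all miRNAs for TBI+ against TBI− was 0.38 with total counts and 0.32 with scaling to miR-28-3p at Monash (0.03 after TMM), and −0.30 and −0.24 at UCLA (−0.01 after TMM). Over all miRNAs, calls at Monash numbered 25 and 11 under these scalings and 106 with DESeq2 (65 in edgeR after TMM), at UCLA 17, 14 and 98 (50), and for the difference between sites 56, 46 and 146 (77). DESeq2 called 25 for injury (8), and UEF against Monash gave 32, 17 and 108 (57). The lowest member counts, 12 to 26 in UCLA TBI+ rats, limit precision for miR-500-5p, and intervals rest on 2 TBI+ rats at Monash. Member pairs called numbered 4, but 10 with total counts, 7 with scaling to miR-28-3p, 0 within each site and 1 to 5 with rats left out. The cause of these changes was not tested.

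Of the values that changed sign, the correlation of miR-500-5p with miR-532-3p was the 1 called after TMM. Reversed correlations called under an alternative were those of miR-362-3p with miR-500-3p and with miR-532-3p under both other scalings, and that of miR-500-5p with miR-532-3p with total counts. For TBI against sham, miR-362-5p was at −0.05 with DESeq2 and with its size factors, −0.02 with no filter, −0.23 thinned, −0.12 with the red cell ratio, −0.06 without Monash and −0.07 without UCLA. miR-500-3p was at −0.20 with the red cell ratio, −0.06 without UEF and −0.03 thinned, miR-500-5p at −0.04 thinned and −0.30 without Monash, and miR-532-5p at 0.02 with scaling to miR-28-3p and 0.07 without UEF. The strand ratio was −0.20 for miR-500 without UCLA and −0.01 for miR-532 without UEF. For TBI+ against TBI−, miR-362-5p was at −0.19 and miR-500-5p at −0.86 without Monash, miR-500-5p at −0.01 with the red cell ratio, and the miR-500 strand ratio at −1.04 without UCLA.

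For UEF against Monash, miR-362-3p was at 0.30 in sham rats alone, and miR-362-5p at −0.20 thinned, −0.11 in TBI rats alone and −0.09 with total counts. miR-500-3p was at 0.01 with DESeq2 and with its size factors, 0.05 with scaling to miR-28-3p and with no filter, 0.03 thinned, 0.14 with the replicate block and 0.12 in TBI rats alone. miR-532-3p was at 0.01 with no filter and in TBI rats alone, 0.05 with the replicate block, 0.19 under a filter of 100 counts in each rat and 0.06 with scaling to miR-28-3p. For UEF against UCLA, miR-362-5p was at −0.07 in TBI rats alone, −0.02 thinned and −0.01 with total counts, and miR-500-3p at −0.13 in sham rats alone. For Monash against UCLA, miR-362-3p was at −0.11 in sham rats alone, miR-362-5p at −0.01 with scaling to miR-28-3p, miR-500-5p at 0.16 and miR-532-5p at 0.01 in TBI rats alone.

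Spearman rho with total counts and with scaling to miR-28-3p was 0.42 and 0.46 for miR-362-3p with miR-500-3p, 0.53 and 0.47 with miR-532-3p, and 0.27 and 0.25 with miR-532-5p. It was 0.36 and 0.24 for miR-362-5p with miR-532-3p, 0.31 and 0.24 for miR-500-3p with miR-500-5p, 0.46 and 0.38 for miR-500-5p with miR-532-3p, and 0.35 and 0.28 for miR-500-5p with miR-532-5p. At UEF alone it was −0.48 between the miR-362 strands, −0.62 for miR-362-5p with miR-500-5p and 0.05 for miR-362-3p with miR-532-3p. At Monash alone it was 0.26 and 0.62 for miR-362-3p with miR-500-3p and miR-532-5p, and 0.21 for miR-500-5p with miR-532-5p. At UCLA alone miR-362-5p was at −0.33 with miR-500-3p and −0.75 with miR-532-5p.

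With rats left out, TBI against sham ran from −0.15 to 0.14 for miR-362-5p and from −0.14 to 0.26 for miR-500-5p. TBI+ against TBI− ran from −0.01 to 0.33 for miR-362-5p, −0.06 to 0.18 for miR-500-3p, −0.20 to 0.41 for miR-500-5p and −0.02 to 0.66 for the miR-500 strand ratio, and at UEF from −0.02 to 0.18 for miR-362-5p and −0.34 to 0.54 for miR-500-5p. UEF against Monash ran from −0.82 to 0.12 for miR-362-3p, −0.08 to 0.35 for miR-362-5p, −0.13 to 0.10 for miR-500-3p, −0.08 to 0.03 for miR-532-3p and −0.57 to 0.08 for the miR-362 strand ratio. UEF against UCLA ran from −0.01 to 0.17 for miR-362-5p, −0.03 to 0.17 for miR-500-3p and −0.06 to 0.12 for the miR-362 strand ratio. Monash against UCLA ran from −0.03 to 0.98 for miR-362-3p, −0.24 to 0.15 for miR-362-5p, −0.02 to 0.16 for miR-500-3p, and for the strand ratios from −0.07 to 0.58 for miR-362, −0.01 to 0.51 for miR-500 and −0.08 to 0.08 for miR-532. Spearman rho of miR-362-5p with miR-532-5p ran from −0.05 to 0.12.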
